A study of Sus scrofa with 6 samples.

Results

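The calpains, their inhibitor calpastatin and the lysosomal cathepsins were described in the longissimus dorsi (the long back muscle) of UCP1 KI and WT pigs. A list of 10 muscle proteolysis genes was chosen with earlier results of these data known. The genes were taken by their pig symbols: *CAPN1*, *CAPN2*, *CAPN3*, *CAPNS1*, *CAST*, *CTSB*, *CTSD*, *CTSL*, *CTSK* and *CTSS*. Of these, 8 were found among the 30476 Ensembl genes of the count table, and all 8 had enough reads to be among the 13402 genes tested. *CAST* had no identifier under its symbol in the table of gene names, and the identifier of *CTSK* did not match a row of counts, so both genes were not analysed here. The study sequenced mRNA of 3 UCP1 KI pigs and 3 WT pigs, each aged 6 months, to ask how the muscle transcriptome differs when UCP1 is expressed in fat. UCP1 KI pigs carry an adipocyte-specific knock-in of UCP1, the protein that uncouples respiration in brown fat, so the gene was not placed to act in the muscle fibres that were sampled. WT pigs served as the controls, and the sample labels name no treatment, although some figure legends of the study speak of cold exposure. The sex and litters of the pigs and the promoter of the inserted gene are not given in these sources. *UCP1* had no identifier here, and the study detected no *UCP1* mRNA in muscle of either group. The genotype labels were therefore not checked with this gene.

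Calpains are cysteine proteases of the cytosol that calcium activates. The ubiquitous forms each pair a large catalytic subunit, encoded by *CAPN1* or *CAPN2*, with the small regulatory subunit encoded by *CAPNS1*, and calpastatin inhibits them. In muscle they cut cytoskeletal proteins at the edge of the sarcomere, and after slaughter the balance of calpain and calpastatin is known for its part in meat tenderness. Cathepsins are proteases of the lysosome, where they degrade proteins delivered by endocytosis and autophagy. *CTSD* encodes an aspartic protease, and *CTSB*, *CTSL*, *CTSK* and *CTSS* encode cysteine proteases of the papain type.

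The counts per pig summed to between 30220951 and 35066624. Levels are given as CPM, the reads of a gene relative to the library total after scaling with edgeR's TMM factors, and 1 read corresponded to between 0.0265 and 0.0365 CPM. CPM is not divided by transcript length, so levels are compared between pigs and not between genes. WT replicate 2 stood apart, with 56.5% of its counts in its 20 most abundant genes against 39.0% to 44.8% in the other 5 pigs. The muscle label was checked with fibre markers: *ACTA1*, skeletal actin, was at 30309 to 55971 CPM and *CKM*, muscle creatine kinase, at 5748 to 11991 CPM over the 6 pigs. A gene was called when its unadjusted p from edgeR's quasi-likelihood test was under 0.05 and its absolute log2 fold change, UCP1 KI against WT, was above 0.5, the thresholds that the study used.

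*CTSD*, *CTSB* and *CAPNS1* passed both limits, and for each the 3 UCP1 KI pigs were all above the 3 WT pigs. The large calpain subunits *CAPN1*, *CAPN2* and *CAPN3* did not pass, and neither did *CTSL* or *CTSS*. Thus 3 of the 8 measured genes were called higher and 0 were called lower, where 8.19% of all genes tested were called, 3.84% as higher and 4.34% as lower. In genes these were 515 higher and 582 lower, and with library size as the sole scaling 929 higher and 195 lower, when the same 3 members were called. The median log2 fold change was 0.30 over the 8 genes and -0.02 over all genes tested. The median of the 8 lay between 0.14 (WT replicate 1 left out) and 0.63 (WT replicate 3 left out), with 0.47 when UCP1 KI replicate 3 was omitted and 0.54 with library size as the sole scaling. After Benjamini-Hochberg adjustment over all genes, edgeR gave 0 genes with an adjusted p under 0.05, while 1100 (8.21%) had an unadjusted p under 0.05. DESeq2 on the same genes gave 127 genes under the adjusted limit (0.95% of 13374), with none of the 8 among them. The number of members called depended on single pigs. It was 1 without UCP1 KI replicate 2 (*CTSD*), 1 without UCP1 KI replicate 3 (*CAPNS1*), 0 without WT replicate 2 and 4 without WT replicate 3, where *CAPN1* joined the other three.

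**Figure D1:**
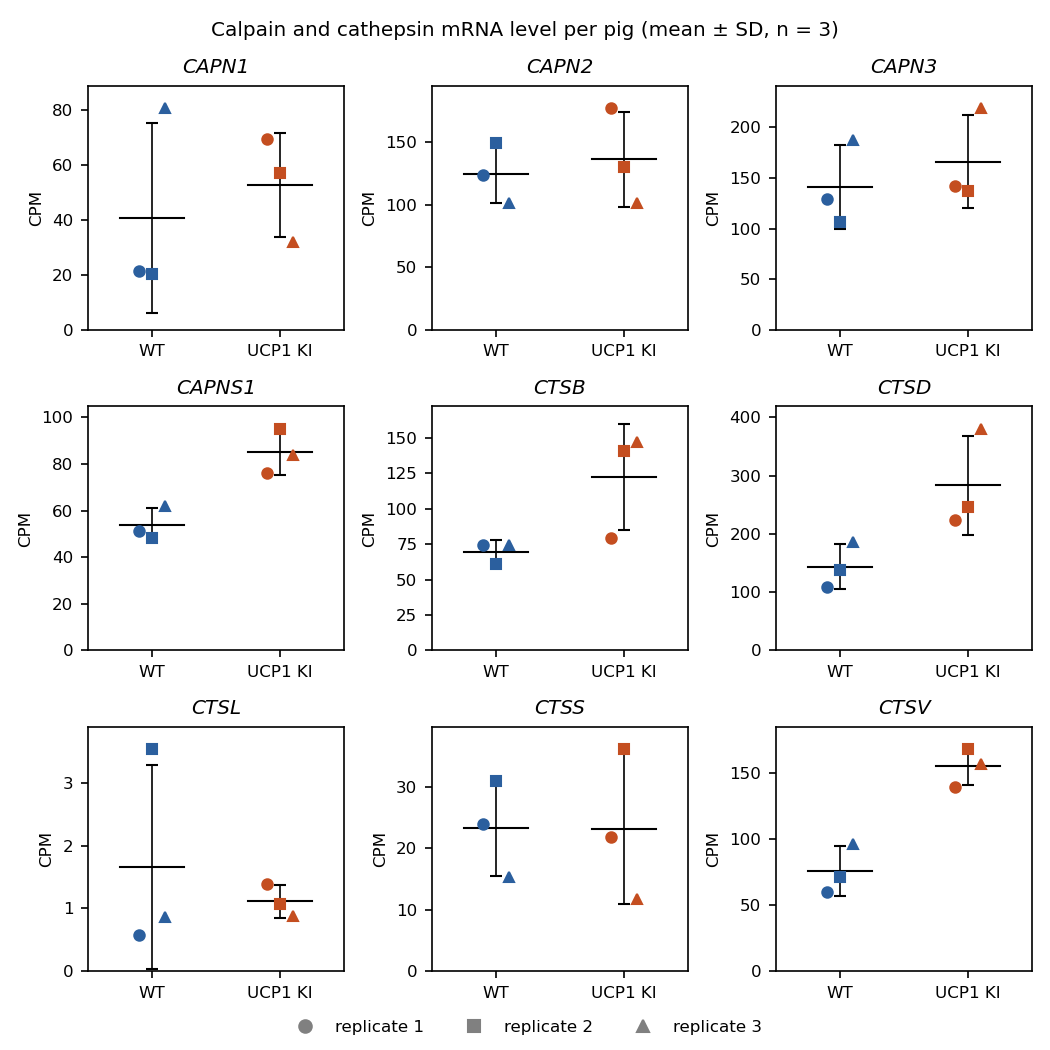
mRNA level in CPM (vertical axes, each from 0) of the 8 measured genes and of *CTSV* in 3 WT and 3 UCP1 KI pigs, where each symbol is a pig, the line is the mean and the bar is the SD. For *CAPNS1*, *CTSB*, *CTSD* and *CTSV* the lowest UCP1 KI pig lies above the highest WT pig, and the groups overlap for the other 5 genes.

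*CAPN1* (ENSSSCG00000012999; chromosome 2, 6997513 to 7024410, Sscrofa11.1) encodes the large subunit of μ-calpain, the ubiquitous form that needs less calcium. In UCP1 KI replicates 1 to 3 it was at 69.2, 57.0 and 31.9 CPM, and in WT replicates 1 to 3, the order kept below, at 21.4, 20.2 and 80.5 CPM. WT replicate 3 was above all 5 other pigs, while the other WT pigs were below all UCP1 KI pigs. The log2 fold change was 0.37 (standard error 0.58, 95% confidence interval -0.97 to 1.71), with an adjusted p of 0.878 from edgeR. Without WT replicate 3 it was 1.34 and passed both limits, so this pig decided the call. RefSeq lists another locus, LOC102165049, that overlaps the span of *CAPN1*, and whether the counting used strand is not given in the sources used here.

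*CAPN2* (ENSSSCG00000029411; chromosome 10, 19758824 to 19820241) encodes the large subunit of m-calpain. Its levels were 177, 130 and 102 CPM in the UCP1 KI group, against 124, 149 and 102 CPM in the WT group. The highest level belonged to a UCP1 KI pig, and replicate 3 of each group was lowest at nearly the same value. The log2 fold change was 0.13 (standard error 0.29, 95% confidence interval -0.55 to 0.80), and edgeR gave an adjusted p of 0.917. It turned to -0.11 without UCP1 KI replicate 1 and to -0.00038 without WT replicate 3.

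*CAPN3* (ENSSSCG00000004728; chromosome 1, 128960117 to 129013508) encodes p94, the calpain of skeletal muscle fibres that binds titin and whose loss causes a limb-girdle muscular dystrophy in humans. UCP1 KI pigs were at 142, 137 and 219 CPM and WT pigs at 130, 107 and 187 CPM. Replicate 3 was highest in both groups, and WT replicate 3 lay above 2 of the UCP1 KI pigs. For *CAPN3* the log2 fold change was 0.23 (standard error 0.31, 95% confidence interval -0.50 to 0.96; edgeR adjusted p = 0.857), and it was -0.01 without UCP1 KI replicate 3. The confidence intervals of *CAPN1*, *CAPN2* and *CAPN3* each include 0 and also values above the limit of 0.5, so these values do not exclude a difference of the size seen for *CAPNS1*.

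*CAPNS1* (ENSSSCG00000030149; chromosome 6, 45511410 to 45518610), the shared small subunit of μ-calpain and m-calpain, was at 76.1, 95.2 and 84.0 CPM in the UCP1 KI group, against 51.2, 48.4 and 62.0 CPM in the WT group. The lowest UCP1 KI pig was above the highest WT pig, and the means were 85.1 ± 9.60 and 53.9 ± 7.15 CPM (SD, n = 3 per group). This is 1.58-fold higher, a log2 fold change of 0.66 (standard error 0.22, 95% confidence interval 0.14 to 1.18). By edgeR the unadjusted p was 0.0193 and the adjusted p 0.583, which lay between 0.250 and 0.930 over the alternatives. *CAPNS1* lost its call when either UCP1 KI replicate 2 (0.56) or WT replicate 2 (0.59) was left out. Groups without overlap were found for 15.3% of all genes tested, with all UCP1 KI pigs above the WT pigs for 7.59% and below them for 7.69%.

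*CTSD* (ENSSSCG00000040793; chromosome 2, 1188548 to 1197642), the main aspartic protease of lysosomes, showed the largest log2 fold change of the 8 genes with all pigs included. Its levels were 223, 246 and 381 CPM in the UCP1 KI group, against 108, 138 and 185 CPM in the WT group. UCP1 KI replicate 3 was well above the others, but the remaining UCP1 KI pigs were also above every WT pig. The means were 283 ± 85.1 CPM in UCP1 KI and 144 ± 38.9 CPM in WT pigs (SD, n = 3 per group). *CTSD* was thus 1.97-fold higher, a log2 fold change of 0.98 (standard error 0.32, 95% confidence interval 0.23 to 1.73). Its unadjusted p from edgeR was 0.0172, and the adjusted p was 0.583, between 0.207 and 0.930 over the alternatives. The call was lost when either UCP1 KI replicate 3 (0.71) or WT replicate 2 (0.95) was left out. Without WT replicate 1 *CTSB* had a larger log2 fold change than *CTSD* (0.85 against 0.80), and without WT replicate 3 *CAPN1* did (1.34 against 1.20).

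*CTSB* (ENSSSCG00000023666; chromosome 14, 15014139 to 15035081) encodes an abundant lysosomal cysteine protease that trims as well as cuts its substrates. UCP1 KI pigs were at 79.3, 141 and 147 CPM and WT pigs at 74.4, 60.7 and 74.3 CPM. UCP1 KI replicate 1 was barely above the WT pigs, whereas UCP1 KI replicates 2 and 3 were far above them. The means of 122 ± 37.4 and 69.8 ± 7.92 CPM (SD, n = 3 per group) correspond to 1.75-fold higher expression. The log2 fold change of 0.81 (standard error 0.29, 95% confidence interval 0.13 to 1.49) had an unadjusted p of 0.0256 from edgeR and an adjusted p of 0.583, from 0.310 to 0.930 over the alternatives. Its call was lost without UCP1 KI replicate 2 (0.68), UCP1 KI replicate 3 (0.65) or WT replicate 2 (0.72). With library size as the sole scaling, UCP1 KI replicate 1 was at 75.1 CPM and WT replicate 1 at 79.3 CPM, so the groups then overlapped, while the call remained at a log2 fold change of 1.08.

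*CTSL* (ENSSSCG00000010948; chromosome 10, 27668523 to 27674705) was measured at a low level under this symbol, with 43, 38 and 33 reads in UCP1 KI pigs and 21, 97 and 26 reads in WT pigs. These are 1.39, 1.07 and 0.874 CPM against 0.579, 3.54 and 0.868 CPM, so that WT replicate 2 alone was high and the remaining pigs overlapped. The log2 fold change was -0.58 (standard error 0.70, 95% confidence interval -2.20 to 1.05; edgeR adjusted p = 0.838) and turned to 0.61 without WT replicate 2. RefSeq also gives CTSL, CTSL1 and CTSL2 as synonyms of a different pig gene on chromosome 10 (25202360 to 25208058), now named *CTSV* (ENSSSCG00000011171), which is a cysteine cathepsin as well. *CTSV* is not on the list of 10, but its values belong beside those of *CTSL* because of this overlap of names. It was at 140, 168 and 157 CPM in the UCP1 KI group, against 59.4, 71.4 and 96.3 CPM in the WT group. Every UCP1 KI pig was thus well above every WT pig, and the UCP1 KI pigs varied little, with 155 ± 14.3 CPM against 75.7 ± 18.8 CPM (SD, n = 3 per group). *CTSV* was 2.04-fold higher, a log2 fold change of 1.03 (standard error 0.26, 95% confidence interval 0.43 to 1.64), with an unadjusted p of 0.00447 and an adjusted p of 0.583 from edgeR. It passed both limits in each of the 6 fits with a pig left out, from 0.88 to 1.25, and in the 6 other alternatives. By DESeq2 its unadjusted p was 0.00039, which places *CTSV* among the 127 genes under the adjusted limit of that test.

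*CTSS* (ENSSSCG00000006648; chromosome 4, 98415273 to 98442952), a cathepsin of antigen-presenting cells, had nearly equal means in both groups. Its levels were 21.8, 36.2 and 11.7 CPM in the UCP1 KI group, against 23.9, 31.0 and 15.3 CPM in the WT group. Replicate 2 was highest and replicate 3 lowest in both groups. The log2 fold change was -0.01 (standard error 0.44), with a 95% confidence interval of -1.03 to 1.01 and an edgeR adjusted p of 0.995. Its sign was positive in 5 of 12 alternatives, with 0.27 under library size as the sole scaling. *CTSK*, the collagen-degrading cathepsin known from osteoclasts, lies next to *CTSS* on chromosome 4 (98389459 to 98404969) and was not analysed here.

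**Figure D2:**
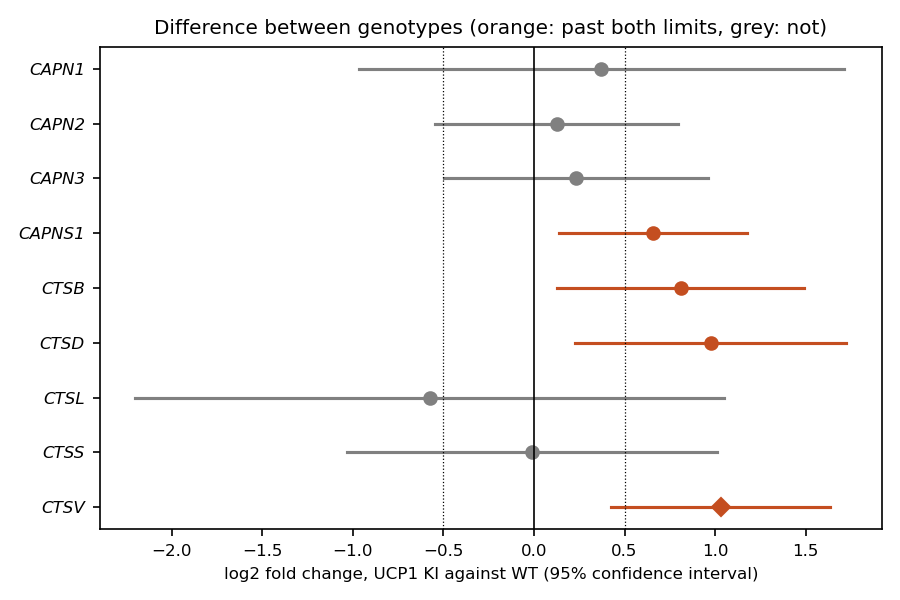
Log2 fold change of UCP1 KI against WT (horizontal axis) with its 95% confidence interval from edgeR for the 8 measured genes (circles) and *CTSV* (diamond), with dotted lines at the limits of 0.5 on each side of 0. The intervals of *CAPNS1*, *CTSB*, *CTSD* and *CTSV* lie above 0, and those of the other 5 genes span it.

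The called genes did not share a single order of pigs. Among UCP1 KI pigs, replicate 3 was highest for *CTSD* and *CTSB*, replicate 2 for *CAPNS1* and *CTSV*, and replicate 1 was lowest for all 4 genes. Among WT pigs, replicate 3 was highest for *CTSD*, *CAPNS1* and *CTSV*, whereas *CTSB* was nearly equal in replicates 1 and 3 and lower in replicate 2. WT replicate 3 was also the pig with high *CAPN1*. The 3 genes with a pattern over the 6 pigs most like that of a called member were named by the root mean squared difference of centred log2 CPM. For *CAPNS1* these were *DCAF13* (0.0701), *ATG12* (0.0727) and *SDHAF2* (0.0747). For *CTSB* they were *LRP10* (0.0924), *TMEM205* (0.120) and *GABARAPL1* (0.136), and for *CTSD* they were *OARD1* (0.0570), *NCDN* (0.0853) and *PSMD3* (0.119).

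**Figure D3:**
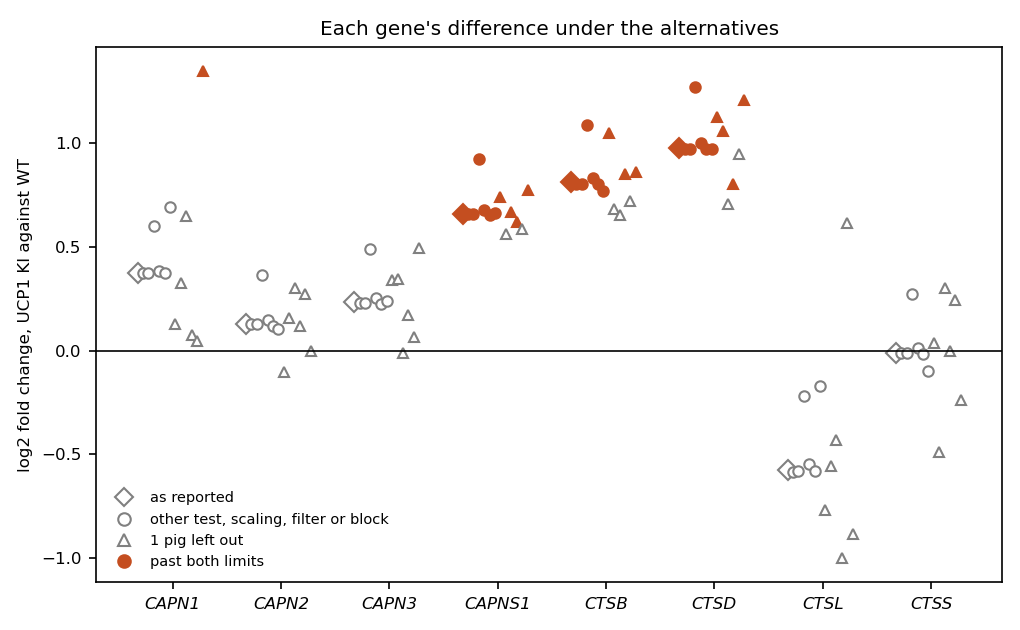
Log2 fold change (vertical axis) of the 8 measured genes as reported (diamonds), with another test, scaling, filter or the replicate block (circles), and with 1 pig left out (triangles), filled where both limits were passed. *CAPNS1*, *CTSB* and *CTSD* lay above 0.5 in all 12 alternatives each, while *CAPN2*, *CAPN3*, *CTSL* and *CTSS* fell on both sides of 0.

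Ratios within a pig do not depend on how libraries are scaled, and 4 of the 7 planned ratios could be computed. The 3 ratios to *CAST*, the gene of the calpain inhibitor, could not. *CAPN2* relative to *CAPNS1* was 2.33, 1.36 and 1.21 in the UCP1 KI group, against 2.41, 3.08 and 1.64 in the WT group. The geometric means were 1.57 and 2.30, a log2 difference of -0.56. Both groups shared part of their range, and an exact two-sided permutation gave p = 0.2 and an adjusted p of 0.4 over the 4 ratios, where 0.1 is the smallest raw p possible. *CAPN1* relative to *CAPNS1* was 0.909, 0.599 and 0.380 against 0.417, 0.418 and 1.299, a log2 difference of -0.04 (exact permutation p = 1) that turned positive without UCP1 KI replicate 3 or WT replicate 3. *CST3* encodes cystatin C, a secreted inhibitor of cysteine cathepsins. *CTSB* relative to *CST3* was 0.600, 0.819 and 1.55 in the UCP1 KI group, against 0.484, 0.361 and 0.744 in the WT group. The log2 difference of 0.85 came with overlapping groups, since WT replicate 3 lay within the UCP1 KI range (exact permutation p = 0.2, adjusted p = 0.4). For *CTSL* relative to *CST3* it was -0.07 (exact permutation p = 1), and the sign changed without UCP1 KI replicate 2 or WT replicate 2.

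**Figure D4:**
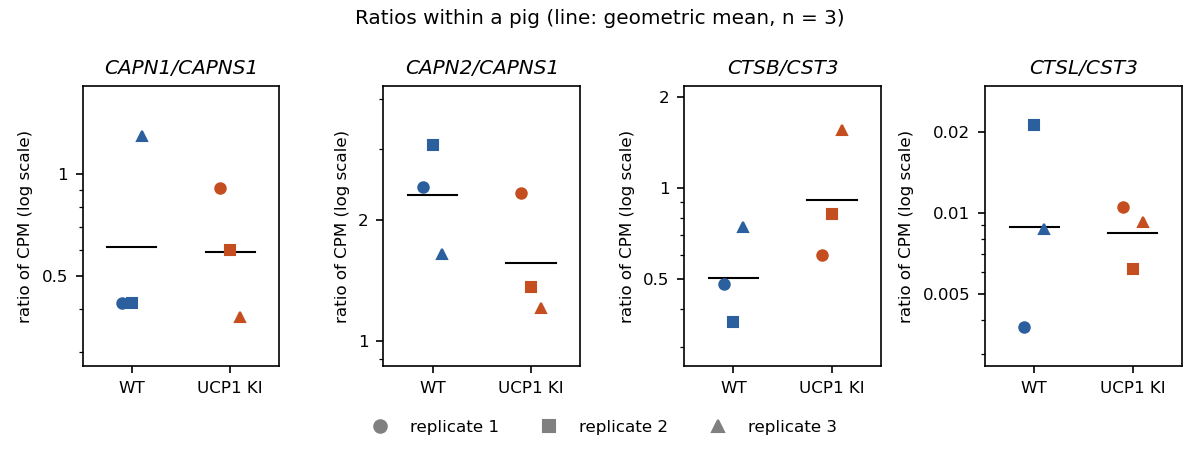
Ratio of the CPM of 2 genes within each pig (vertical axes, log scale) for the 4 ratios, where each symbol is a pig and the line is the geometric mean of 3 pigs. WT and UCP1 KI pigs overlap in every panel, with the lowest *CTSB* to *CST3* ratios in 2 WT pigs and the lowest *CAPN2* to *CAPNS1* ratios in 2 UCP1 KI pigs.

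Of 12 other calpain genes, 5 had enough reads to be tested, 6 did not pass the filter on low counts and *CAPNS2* was not found. Of the 6, *CAPN9*, *CAPN13* and *CAPN14* had 0 reads in every pig. The median log2 fold change of the 5 tested genes was 0.04. Both called genes were lower in UCP1 KI pigs. *CAPN6*, a calpain that lacks the catalytic cysteine, was at 6.82, 5.36 and 7.20 CPM in the UCP1 KI group, against 13.0, 8.73 and 10.4 CPM in the WT group. The groups did not overlap, and the log2 fold change was -0.73 (standard error 0.27), with an unadjusted p of 0.0272 from edgeR. *CAPN5*, a calpain without the calcium-binding domain of the classical forms, was at 4.88, 3.06 and 3.76 CPM against 6.75, 5.51 and 6.64 CPM, a log2 fold change of -0.69 (unadjusted p of 0.0436 from edgeR). Both calls were lost with library size as the sole scaling, at -0.51 and -0.48, and that of *CAPN5* also without a filter on low counts, at -0.68. *CAPN6* passed in 3 of the 6 fits with a pig left out (not without UCP1 KI replicates 1 or 2 or WT replicate 1, with -0.76, -0.62 and -0.57), and *CAPN5* passed in 1, without UCP1 KI replicate 1. *CAPN7*, the most abundant of the 5 in CPM, was at 18.5 ± 2.67 CPM in the UCP1 KI group, against 18.0 ± 3.23 CPM in the WT group (SD, n = 3 per group), and *CAPN10* and *CAPN15* likewise did not pass.

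Among 15 other lysosomal proteases and their activators, 13 were tested, 2 were called higher and 0 lower, and the median log2 fold change was 0.17. The called genes were *CTSV*, described above, and *PSAP*. *PSAP* encodes prosaposin, the precursor of the saposins that help lysosomal enzymes degrade sphingolipids, and it is not a protease itself. It was at 257, 209 and 151 CPM in the UCP1 KI group, against 91.9, 113 and 113 CPM in the WT group. The lowest UCP1 KI pig was above the highest WT pig, a 1.94-fold difference with a log2 fold change of 0.96 (standard error 0.27) and an unadjusted p of 0.00873 from edgeR. *PSAP* passed both limits with each pig left out, from 0.77 to 1.14. *CTSC* and *CTSZ*, cathepsins that remove residues from the ends of proteins, had log2 fold changes of 0.16 and 0.27 and did not pass. *CTSA*, *CTSF*, *CTSH*, *CTSO*, *CTSW*, *LGMN*, *TPP1*, *PPT1* and *NAPSA* did not pass either, with values from -0.74 for *CTSH* to 1.125 for *CTSW*. *CTSW*, a cathepsin of cytotoxic lymphocytes, was at 12.2 CPM in UCP1 KI replicate 2 and between 2.49 and 6.40 CPM in the other 5 pigs. *CTSW* was called when UCP1 KI replicate 3 was omitted (1.52) and with library size as the sole scaling (1.41), and *CTSH* was called lower when WT replicate 3 was omitted (-1.13).

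The list of cathepsin inhibitors held 11 genes, of which 6 were tested and 1 was called, with a median log2 fold change of 0.10. *CST3* was at 132, 172 and 94.9 CPM in the UCP1 KI group, against 154, 168 and 99.9 CPM in the WT group, a log2 fold change of -0.08 (95% confidence interval -0.82 to 0.65). *CSTB*, a cytosolic inhibitor, was at 43.1 ± 5.74 and 43.8 ± 10.2 CPM (SD, n = 3 per group), a log2 fold change of -0.02 with an interval of -0.61 to 0.57. The called gene was *CST7*, which encodes the leukocyte inhibitor cystatin F. It was at 1.13, 2.64 and 0.291 CPM in the UCP1 KI group and lay between 0.183 and 0.221 CPM in the WT group. Its log2 fold change of 2.72, which had a standard error of 0.82 and an unadjusted p of 0.0111 from edgeR, was 1.80 and not called without UCP1 KI replicate 2, and was called with any of the other 5 pigs left out. Omitting WT replicate 2 added a lower call for *SERPINB6*, an intracellular serpin (-0.77).

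The lysosome beyond its proteases was described with 38 genes of its membrane, of enzyme sorting and of its biogenesis, 36 of them tested. Their median log2 fold change was 0.07, with 22 of 36 above 0, and 1 gene was called in each direction. *NPC1*, a cholesterol transporter of the lysosomal membrane, was at 11.0, 15.2 and 13.7 CPM in the UCP1 KI group, against 9.70, 7.27 and 6.44 CPM in the WT group. Its log2 fold change was 0.77 (standard error 0.27, unadjusted p of 0.0218 from edgeR), without overlap between the groups. *M6PR*, the cation-dependent receptor that carries newly made lysosomal enzymes to the lysosome, was at 11.5, 13.5 and 17.9 CPM in the UCP1 KI group, against 18.7, 27.0 and 27.4 CPM in the WT group. The log2 fold change of *M6PR* was -0.77 (standard error 0.27, unadjusted p of 0.0243 from edgeR), and it was -0.47 and not called with library size as the sole scaling. Each of these genes was called in 2 of the 6 fits with a pig left out: *NPC1* was lost without UCP1 KI replicates 2 or 3 or WT replicates 2 or 3 (0.65 to 0.74), and *M6PR* without UCP1 KI replicates 1 or 2 or WT replicates 2 or 3 (-0.74 to -0.63). *LAMP1*, a main protein of the lysosomal membrane, was at 71.4, 90.1 and 85.1 CPM against 58.7, 33.9 and 69.8 CPM, a log2 fold change of 0.60 that did not pass (edgeR adjusted p = 0.636) but was called at 0.83 when WT replicate 3 was omitted. *TFEB*, a transcription factor of lysosomal genes, had a log2 fold change of -0.13, and *CD63*, the most abundant gene of this list in CPM, had -0.09.

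Of 27 muscle structural proteins that calpains are known to cut or bind, 25 were tested, and *TTN* and *LDB3* were not found. The median log2 fold change was -0.15 (0.07 with library size as the sole scaling), 17 of the 25 were below 0, and 1 was called. This was *SPTB*, the beta spectrin of the membrane skeleton, at 71.5, 103 and 92.8 CPM in the UCP1 KI group, against 47.3, 33.9 and 66.9 CPM in the WT group. Its log2 fold change was 0.85 (standard error 0.31, unadjusted p of 0.0249 from edgeR), and it was called in 2 of the 6 fits with a pig left out (not without UCP1 KI replicates 2 or 3 or WT replicates 1 or 2, from 0.64 to 0.82). *DES*, desmin of the intermediate filaments, was at 7065, 9113 and 4616 CPM against 5045, 3321 and 4226 CPM, a log2 fold change of 0.72 that did not pass, though it did with library size as the sole scaling. Omitting WT replicate 3 added a lower call for *VIM*, vimentin (-0.92), and omitting WT replicate 1 put a higher call for *TNNI1*, slow troponin I, in place of *SPTB*. *TNNT3*, fast troponin T and the most abundant gene of the list in CPM, was at 17257, 4144 and 17416 CPM against 11937, 27929 and 27368 CPM. UCP1 KI replicate 2 was lowest, and the log2 fold change of -0.79 did not pass (95% confidence interval -2.30 to 0.71).

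**Figure D5:**
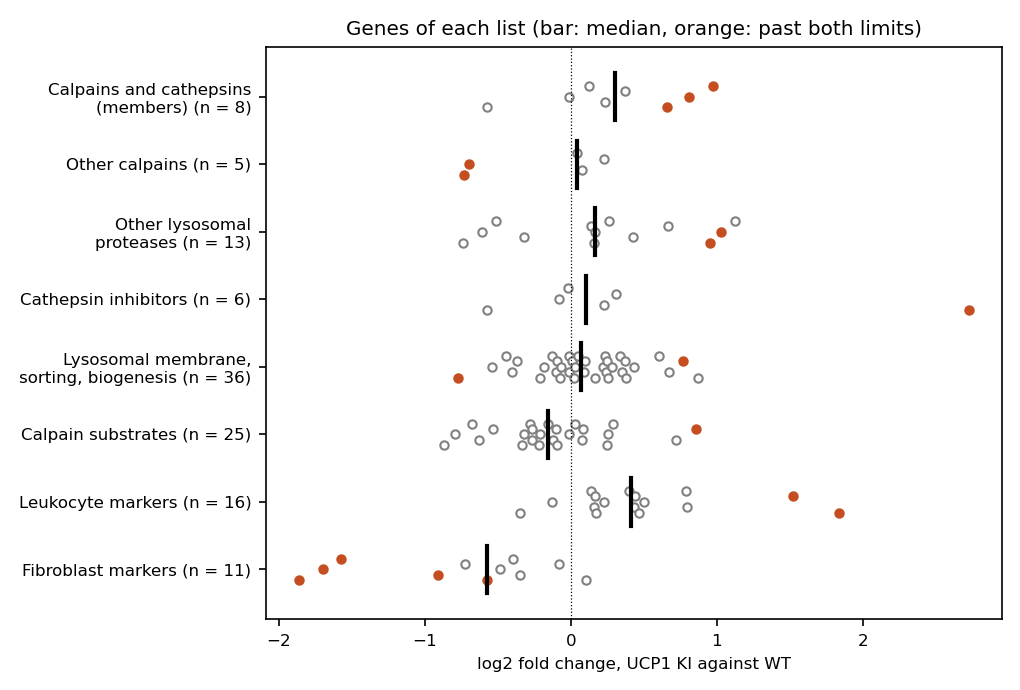
Log2 fold change (horizontal axis) of each tested gene of the calpain and cathepsin list, of 5 related lists and of the leukocyte and fibroblast markers, filled where both limits were passed, with the median of each list as a bar. The medians are 0.30 for the calpains and cathepsins, 0.17 for the other lysosomal proteases, 0.07 for the lysosomal membrane, sorting and biogenesis genes and -0.57 for the fibroblast markers.

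Cathepsins are also made by macrophages and fibroblasts, so markers of other cell types were measured in the same pigs. In whole muscle, fewer cells of a type and less RNA per cell cannot be told apart. Of 18 leukocyte markers 16 were tested, 14 of these had a log2 fold change above 0, the median was 0.41, and *ITGAM* and *CD3E* were called higher. When UCP1 KI replicate 2 was left out, 0 leukocyte markers were called and the median was -0.14. The same count and a median of 0.12 were found with WT replicate 3 left out, and 1 was called when any of WT replicates 1 and 2 or UCP1 KI replicate 1 was left out. The median rose to 0.95 with WT replicate 2 left out and to 0.79, with 3 called, when UCP1 KI replicate 3 was omitted, and library size as the sole scaling gave 0.73 with 3 called. The summed level was 576 to 1184 CPM in the UCP1 KI group, against 583 to 1168 CPM in the WT group, and *LYZ* was at 0 in every pig. *CD74*, which encodes the invariant chain of antigen presentation, made up most of this sum, at 474 to 970 CPM. Of 11 fibroblast markers tested, 5 were called lower and 0 higher, with a median of -0.57, and their sum was 337 to 532 CPM in the UCP1 KI group, against 831 to 1334 CPM in the WT group, without overlap. The collagen genes *COL1A1*, *COL1A2* and *COL3A1* made up most of this gap, with 115 to 301 CPM against 599 to 993 CPM, while the other 8 markers summed to 213 to 231 CPM against 233 to 349 CPM. The number of fibroblast markers called lower was 3 without UCP1 KI replicate 1, UCP1 KI replicate 2 or WT replicate 1, and 2 without WT replicate 2. It was 4 without UCP1 KI replicate 3, 6 without WT replicate 3, and 3 with library size as the sole scaling. Of 7 adipocyte markers tested, *LIPE* was called higher, yet 5 of the 7 had a log2 fold change below 0 and the median was -0.80. *FABP4* and *ADIPOQ* had log2 fold changes of -1.22 and -1.26 that did not pass, each highest in WT replicate 2, and the median was -0.03 without that pig. The adipocyte sum was 161 to 210 CPM against 130 to 335 CPM, and the number called was 3 without WT replicate 1 and 2 without WT replicate 3. The sum over the fibre markers was 68542 to 127126 CPM in the UCP1 KI group, against 91917 to 147488 CPM in the WT group, with 0 of 8 called and UCP1 KI replicate 2 lowest. With library size as the sole scaling *DES* was called higher (0.95), and with WT replicate 1 left out *TNNC2*, fast troponin C, was called lower (-1.33). Endothelial markers (7 tested, *TEK* called higher) summed to 339 to 620 CPM against 308 to 571 CPM. Red blood cell markers (4 tested, median -1.37) summed to 11.6 to 76.5 CPM in the UCP1 KI group, against 106 to 181 CPM in the WT group. *HBM* was called lower among them, *HBB* took its place (-0.81) when UCP1 KI replicate 2 was omitted, and 0 were called with library size as the sole scaling or when WT replicate 1, WT replicate 3 or UCP1 KI replicate 3 was left out, and 2 without UCP1 KI replicate 1. The part that leukocyte, fibroblast, adipocyte and red blood cell content had in the levels of the proteases was not tested.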

How the data were processed

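Libraries of mRNA from the longissimus dorsi of 3 UCP1 KI and 3 WT pigs were analysed, 1 library per pig. The authors trimmed reads with Trimmomatic 0.36, mapped them with HISAT2 2.0 and computed expression with StringTie 1.3.3b. The build named in the submitters' processing notes is Sscrofa11.1. The deposited values are raw gene counts, and the counting program and annotation release are not given in the sources used here. Symbols came from a table of Ensembl names that paired 14864 of 30476 identifiers, and positions from RefSeq for Sscrofa11.1.

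The tests were run with edgeR 4.0.16 under R 4.3.3. Genes that filterByExpr retained (default settings) were scaled with TMM factors and tested with the quasi-likelihood F test, with genotype as the sole term. The standard error is the size of the log2 fold change divided by the square root of F. SDs are over the 3 pigs of a group, and whether pigs were littermates is unknown, so p values measure the spread between these pigs alone. Ratios were tested with exact permutations, two-sided. Every member was named, and from 5 related lists the called genes and the one with the highest CPM. *CTSC*, *CTSZ*, *CTSH*, *CTSW*, *CSTB*, *LAMP1*, *TFEB*, *DES*, *VIM*, *TNNI1* and *SERPINB6*, and the markers given by name, fall outside this rule and were chosen after their values were seen. *CAPN10*, *CAPN15*, *CTSA*, *CTSF*, *CTSO*, *LGMN*, *TPP1*, *PPT1* and *NAPSA* also fall outside this rule and were named to complete their lists of tested genes. Cell marker lists were given by counts and sums. The members and lists were chosen with earlier results of these data known. Alternatives were DESeq2 1.42.0, median-of-ratios factors, library size only, 2 other filters, a replicate block, the omission of each pig in turn, no fold limit and an adjusted p. The scripts were tested on simulated data.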

Additional observations from a re-analysis of the deposited data

How the results depend on the processing

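*CAPNS1*, *CTSB* and *CTSD* stayed above 0 in all 12 alternatives each, and passed both limits in the 6 that did not leave out a pig. The number of members past the limits was 3 with DESeq2, median-of-ratios factors, library size only, either other filter and no fold limit, and 0 with an adjusted p under 0.05, where 0 of all genes passed in edgeR. With each pig left out it lay between 0 and 4, and for all genes between 678 (without UCP1 KI replicate 2) and 1541 against 1097. The count was 718 without WT replicate 2. With library size only, the median over all genes moved from -0.02 to 0.24 on the log2 scale, with 929 higher and 195 lower calls in place of 515 and 582.

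Whether the numbers of the pigs mark pairs is not given in the sources used here. Deviations of same-numbered pigs correlated at -0.0074, 0.109 and 0.300 over 10156 genes, and the last was the highest of all combinations. Differently numbered pigs correlated at -0.224 to 0.144, and WT replicate 1 correlated best with UCP1 KI replicate 2. These values from 3 pigs per group cannot decide whether pairs exist. With the replicate block 1114 genes and 3 members passed, and it changed no call of a member.

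With each pig left out, the log2 fold change lay between 0.046 and 1.34 for *CAPN1*, -0.11 and 0.30 for *CAPN2*, -0.013 and 0.49 for *CAPN3*, 0.56 and 0.77 for *CAPNS1*, 0.65 and 1.05 for *CTSB*, 0.71 and 1.20 for *CTSD*, -0.998 and 0.61 for *CTSL*, and -0.49 and 0.30 for *CTSS*. *CTSS* reversed with library size only (0.27) and with all genes with any count (0.011). The log2 difference lay between -0.35 and 0.50 for *CAPN1*/*CAPNS1* and between -0.68 and 0.56 for *CTSL*/*CST3*. It lay between 0.47 and 1.15 for *CTSB*/*CST3* and between -0.84 and -0.35 for *CAPN2*/*CAPNS1*. With a pseudocount of 1 CPM no ratio changed its sign. The cause of these changes was not tested. Library size only moved the medians of the other lists up, to 0.29 for the other calpains, 0.45 for the other lysosomal proteases, 0.39 for the cathepsin inhibitors, 0.33 for the lysosomal membrane, sorting and biogenesis genes and 0.07 for the calpain substrates. With each pig left out, these medians lay between -0.093 (WT replicate 2) and 0.078 (WT replicate 3) for the other calpains, 0.087 (UCP1 KI replicate 3) and 0.27 (WT replicate 3) for the other lysosomal proteases, -0.023 (WT replicate 1) and 0.25 (WT replicate 2) for the cathepsin inhibitors, 0.018 (UCP1 KI replicate 3) and 0.17 (WT replicate 3) for the lysosomal membrane, sorting and biogenesis genes and -0.22 (UCP1 KI replicate 1) and -0.066 (WT replicate 3) for the calpain substrates. *CTSL* had the fewest reads of the members, 21 to 97 per pig.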
